A study of Homo sapiens with 4 samples.

Results

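The vemurafenib-resistant A375 cells (RV) were set against the untreated, drug-sensitive A375 cells (S), gene by gene, across all genes measured. A375 is an established human melanoma line with an activating *BRAF* mutation, and vemurafenib is an inhibitor of the mutant BRAF kinase. S cells had received no drug, whereas RV cells had been grown for 10 to 14 days on vemurafenib below its IC50, the concentration of 50% inhibition, and the drug was withdrawn 24 h before capture. Both cultures grew in RPMI containing serum (10%), 10000 cells of each were loaded for droplet capture, and each condition was sequenced as 1 library. The series holds 4 conditions, of which the 2 double-agent-resistant cultures are not described here. A barcode was kept as a cell if it had 500 or more genes detected and no more than 20% mitochondrial UMIs. A UMI, or unique molecular identifier, tags 1 captured transcript. This gave 6693 S cells of 6695 barcodes and 4327 RV cells of 4328, together 11020 of the 28640 cells that the same rule keeps in the whole series. The study analysed fewer S and RV cells than the deposited barcodes and names no thresholds for them.

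The S cells held 63582691 UMIs and the RV cells 55283706, with a median of 8911 UMIs per S cell (quartiles 7174 and 11017) and 11648 per RV cell (quartiles 9194 and 15084.5). Levels are given as CPM, the UMIs of a gene per 1000000 UMIs summed over all cells of a library. The 95% intervals are exact and cover counting error only. With 1 library per condition there is no replicate check and no test, and the spread between cultures is unknown. In summed counts, fewer cells that express a gene and fewer transcripts per cell cannot be told apart, so that shares of cells with a UMI are also given after each cell was thinned at random to 5734 UMIs. Thinning left out 670 S and 181 RV cells with fewer UMIs. S and RV shared 38 cell barcodes, 0.878% of the RV barcodes.

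In *BRAF*-mutant melanoma the mutant kinase drives MEK and ERK without growth factor input, and ERK in turn induces cyclin D1, FOS-family transcription factors and its own phosphatases. Cells under BRAF inhibition are known to move along a differentiation axis, from melanocytic cells with MITF and pigment genes, through neural crest-like cells with SOX10, ERBB3 and NGFR, to undifferentiated cells with AXL and EGFR. Receptor tyrosine kinases, YAP and its partner TEAD, and inflammatory signalling are known routes around the blocked kinase.

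Markers of undifferentiated and of neural crest-like melanoma were present only in part, and most pigment cell genes did not reach 10 CPM. *AXL* was at 95.5 CPM in S and 170 in RV, and *SOX10*, which melanocytes also express, at 87.6 in S and 40.2 in RV. *EGFR* and *NGFR* were below 10 CPM in S, at 4.39 and 1.09. Of 20 melanocyte differentiation genes, 3 reached 10 CPM in either library. *TYR*, which encodes tyrosinase, had no UMI in S or RV, and *MLANA* had 1 UMI in each. Leukocyte, endothelial, fibroblast and erythroid markers were near 0 in both libraries, but keratinocyte markers were not. The 7 leukocyte markers summed to 0.393 CPM in S and 0.308 in RV, with no UMI of *PTPRC* in either library, the 3 endothelial markers to 0.440 and 0.488, the 4 fibroblast markers to 2.36 and 2.10, and the 3 erythroid markers to 0.0472 and 0.0181. The 4 keratinocyte markers summed to 239 CPM in S and 252 in RV. *KRT10* was at 233 CPM in S and 241 in RV and *KRT14* at 6.18 and 11.4, while *KRT5* had 1 UMI in S and none in RV.

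Most genes lay close to the S level. Of 6127 genes that reached 10 CPM in S or RV, 5456 (89.0%) differed by less than 1.5-fold, and the log2 ratio of RV over S had a median of 0.03 and a standard deviation of 0.49. At least 2-fold differences were found for 267 genes (4.36% of those measured). Of these, 161 were higher in RV (2.63%) and 106 lower (1.73%), and for 122 and 82 of them the whole counting interval lay beyond 2-fold. At least 1.5-fold differences were found for 398 genes higher (6.5%) and 273 lower (4.46%). Differences of at least 4-fold were rare, with 24 genes higher and 28 lower. Of all measured genes 3370 lay above S and 2757 below, the background for the counts above and below S given for gene lists. In the following, a gene is said to rise or fall where its level differed by at least 2-fold. Genes encoding long intergenic non-coding RNAs rose in 19 of 101 cases and fell in 4, with a median log2 ratio of 0.17, whereas 140 of 5922 protein-coding genes rose and 98 fell, with a median of 0.03. These classes were not matched for level, and a gene near 10 CPM can enter through its higher library alone.

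**Figure D1:**
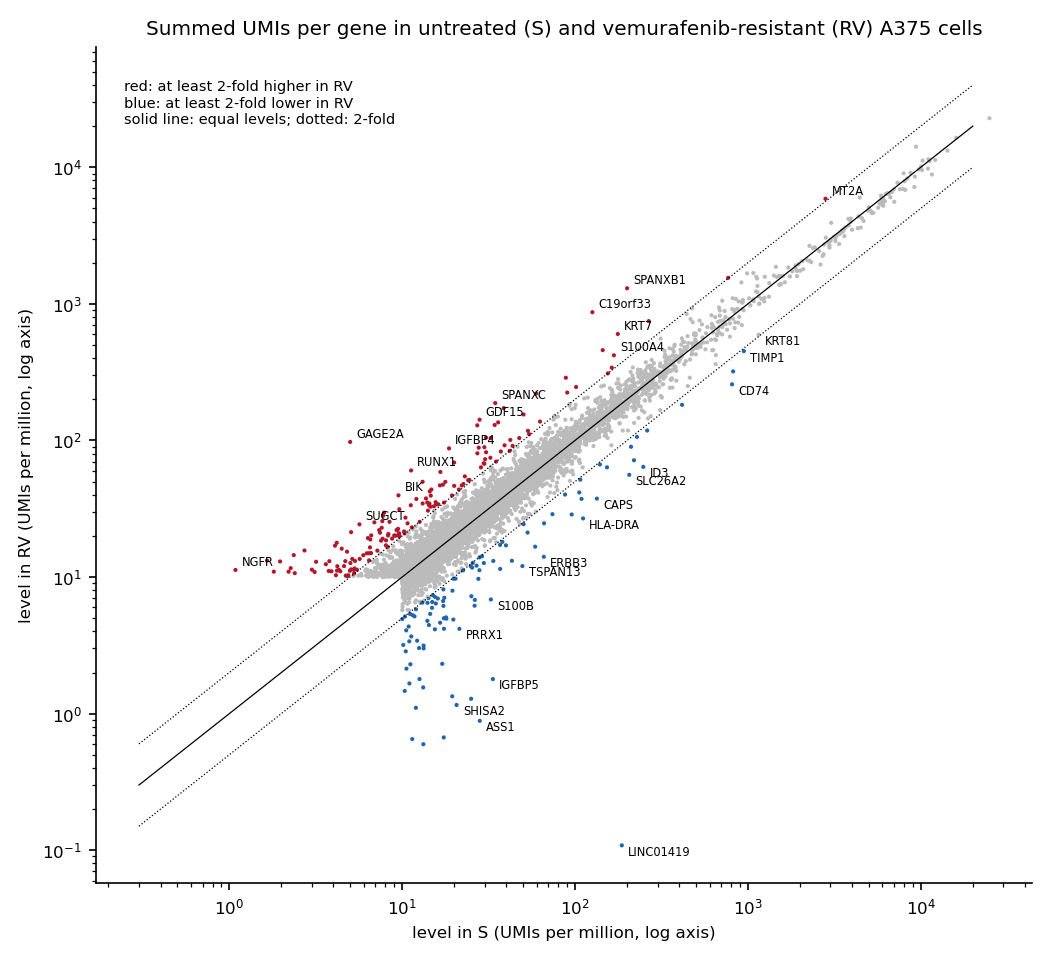
Level of each of the 6127 measured genes in S (horizontal) and RV (vertical), in CPM on log axes. Most points lie along the line of equal levels, 161 red points lie at least 2-fold above it, 106 blue points at least 2-fold below it, and LINC01419 lies farthest from it.

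The largest rises, among genes of at least 20 CPM in the higher library, included 3 cancer-testis antigens, genes that are normally silent outside the germ line. *GAGE2A* (chromosome X, 49589529 to 49596827) had 5.00 CPM in S and 97.6 in RV, a 19.5-fold rise (17.4 to 21.9). *SPANXB1* had 200 CPM in S and 1300 in RV (6.50-fold), and *SPANXC* had 34.6 and 188 (5.43-fold). The GAGE and SPANX families consist of near-identical copies, among which the counting can split or merge reads, so that these values are uncertain as to the copy. Of 11 measured cancer-testis genes 10 were above S (median log2 ratio 0.43) and 3 rose, the third being *GAGE1* (16.6 to 58.8 CPM) beside both SPANX genes, and *GAGE2A* is not on this list. *MAGEA4* was at 249 and 311, *PRAME* at 35.0 and 40.7 and *PAGE5* at 489 and 480 CPM.

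*C19orf33*, which encodes a small nuclear protein also called immortalization upregulated protein, rose from 126 CPM in S to 868 in RV, or 6.89-fold (6.73 to 7.06). The transcription factor gene *RUNX1* (chromosome 21, 34787801 to 36004667) had 11.3 CPM in S and 60.3 in RV, 5.35-fold more (4.94 to 5.81). *GDF15*, a stress-induced cytokine of the TGF-beta superfamily, had 28.0 and 142 CPM (5.06-fold). *SLC14A1*, a urea transporter, had 27.2 and 129, and *IGFBP4*, a secreted binding protein of insulin-like growth factors, had 18.7 and 87.5. *SERINC2*, *SUGCT*, *MISP*, the BH3-only apoptosis inducer *BIK*, the cytidine deaminase *APOBEC3G*, the serine protease *PRSS23* and the GTPase-activating protein *ARHGAP29* completed the 15 largest rises, with 3.78-fold to 4.46-fold higher levels in RV. The lower of these values belonged to *ARHGAP29*, at 35.9 CPM in S and 136 in RV, and the higher to *SERINC2*, at 38.7 and 172.

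*LINC01419*, a long intergenic non-coding RNA gene on chromosome 8 (83403758 to 83408900), showed the largest fall. It had 186 CPM in S from 11852 UMIs and 0.109 CPM in RV from 6 UMIs (0.0398 to 0.236). *ASS1*, the argininosuccinate synthase that cells need to make their own arginine, fell from 28.1 CPM to 0.886, or 31.7-fold (23.9 to 43.0). *SERPINF1*, which encodes the anti-angiogenic pigment epithelium-derived factor, had 25.1 CPM in S and 1.28 in RV (19.5-fold), *IGFBP5* had 33.5 and 1.79 (18.7-fold), and *SHISA2* had 20.6 and 1.16 (17.8-fold). The next falls were between 3.57-fold and 5.13-fold. They comprised the homeobox gene *PRRX1* (21.4 to 4.18 CPM), the glial marker *S100B* (32.6 to 6.86), the neuregulin receptor *ERBB3* (66.0 to 14.1), the intermediate filament gene *NES* (26.3 to 6.80), the MHC class II alpha chain *HLA-DRA* (111 to 26.9), the sulphate transporter *SLC26A2* (206 to 56.0), the inhibitor of differentiation *ID3* (248 to 64.1), and *FARP1*, *TSPAN13* and *CAPS*.

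At equal depth these differences were also seen in the number of cells with a UMI. *C19orf33* was found in 34.5% of thinned S cells and 95.2% of RV cells, *SPANXB1* in 34.1% and 93.1%, and *GAGE2A* in 2.56% and 34.1%. *LINC01419* was found in 57.5% of S cells and 0.0241% of RV cells, *ID3* in 63.3% and 24.8%, *SLC26A2* in 52.0% and 21.9%, and *ASS1* in 14.4% and 0.507%. *RUNX1* (6.18% and 25.6%) and *BIK* (4.85% and 19.03%) had a UMI in a minority of cells of either culture. As a pure cell line offers no cells known to be without these transcripts, the share due to free RNA in the droplets could not be measured.

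**Figure D2:**
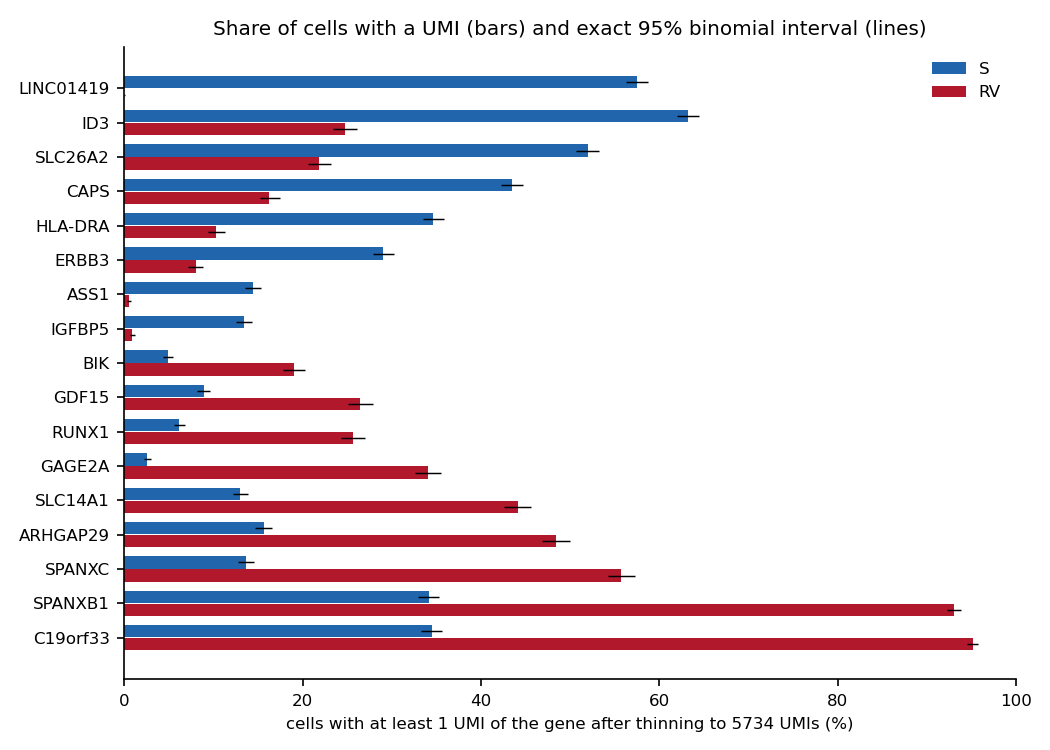
Share of S (blue) and RV (red) cells with at least 1 UMI of 17 genes after every cell was thinned to the same number of UMIs, with exact 95% binomial intervals. C19orf33 and SPANXB1 go from about 34% of S cells to more than 93% of RV cells, and LINC01419 goes from 57.5% to 0.0241%.

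The kinases of the inhibited pathway mostly had similar levels in both cultures. None of 10 measured RAS, RAF, MEK and ERK genes rose or fell, and their median log2 ratio was 0.05. *MAP2K1*, which encodes MEK1, was highest relative to S among them at 13.1 CPM in S and 20.6 in RV. The drug target *BRAF* was below the minimum level at 3.37 and 5.61 CPM, 1.67-fold higher in RV (1.40 to 1.99). The 13 measured genes of ERK output and feedback had a median of -0.00, with 2 rises and no fall. *DUSP6*, an ERK phosphatase induced by ERK itself, was at 56.1 CPM in S and 65.0 in RV, *SPRY2* at 22.4 and 20.4, *ETV4* at 74.96 and 74.94, and *ETV5* at 31.9 and 21.3. The 2 that rose were *FOSL1*, the AP-1 subunit FRA1, from 163 to 341 CPM, and the ephrin receptor *EPHA2*, from 30.6 to 81.9. The log2 ratio of *FOSL1* was 1.06 in all cells and 0.65, under 2-fold, in cells with few cell cycle UMIs. The cyclin D1 gene *CCND1* was at 216 and 342 CPM and *DUSP4* at 113 and 203. The drug had been absent for 24 h in RV cells, so that these levels were not taken under inhibition.

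Among immediate-early and AP-1 genes *JUN* rose from 11.4 to 23.1 CPM beside *FOSL1*, the nuclear receptor *NR4A1* fell from 25.1 to 7.24, and *EGR1* (22.2 and 19.9), *JUNB* (105 and 88.3) and *MYC* (20.6 and 18.5) were close to S. In cells with few cell cycle UMIs, however, *MYC* was more than 2-fold lower, with a log2 ratio of -1.03 against -0.16 in all cells. The median over the 13 measured genes was 0.02.

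Receptor tyrosine kinases moved in both directions. Of 10 measured genes, *EPHA2* and the epidermal growth factor receptor *EGFR* (4.39 to 11.02 CPM) rose and *ERBB3* fell, while *AXL* (95.5 and 170), *MET* (15.2 and 24.7) and *IGF1R* (15.5 and 9.23) changed less. Of the ligands, the EGFR ligand *AREG* rose from 30.5 to 105 CPM and *HBEGF* from 8.26 to 16.6, whereas another EGFR ligand, *TGFA*, was at 77.9 in S and 45.9 in RV.

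The study's neural crest-like markers that reached 10 CPM fell together. All 8 measured of 13 genes were at least 2-fold lower in RV, with a median log2 ratio of -2.14. Of these, *S100B*, *HLA-DRB1* and *HLA-DRB5* passed the minimum level only through S, the library where they are higher. Among the markers not measured, *MAJIN* and *NME9* had no UMI in S, and *KRT23* had 3 UMIs in each library. The study chose these markers on these libraries, so that the list is no independent evidence of its direction. *SOX10*, a transcription factor of the neural crest and of melanocytes, fell 2.18-fold, the smallest change among the 8. The others were *ERBB3*, *S100B*, *RAMP1* (106 to 41.6 CPM, 2.54-fold) and 4 genes of MHC class II presentation, *CD74*, *HLA-DRA*, *HLA-DRB1* and *HLA-DRB5*. In cells with few cell cycle UMIs (defined below) *SOX10* had a log2 ratio of -0.79, under 2-fold. Other lineage genes moved in both directions. The low-affinity nerve growth factor receptor *NGFR*, also a neural crest marker, rose from 1.09 CPM in S to 11.3 in RV, a log2 ratio of 3.38 (3.02 to 3.76). *MITF*, the melanocyte master regulator, rose from 9.61 to 20.02 CPM, but its log2 ratio of 1.06 was 0.72 in cells with few cell cycle UMIs. *SOX5* fell from 17.4 to 4.99, and *TFAP2A* (10.5 and 10.7) and *NR2F2* (18.2 and 20.7) were near the S level. *TFAP2B* had 337 UMIs in S (5.30 CPM) and 1 in RV.

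MHC class II presentation, by which antigen-presenting cells and some melanomas show peptides to helper T cells, was lower in RV. Of 10 measured genes 5 fell and none rose, and 9 were below S, with a median log2 ratio of -1.28. Among the 5, *HLA-DRB1*, *HLA-DRB5* and *HLA-DQB1* passed the minimum level only through S, so that they could enter the list only as lower in RV. The invariant chain *CD74* had 810 CPM in S and 258 in RV. *HLA-DRB1* fell from 12.6 to 1.79 CPM and *HLA-DRB5* from 13.2 to 1.56, and since these near-identical genes can share reads the division between them is uncertain. *HLA-DQB1* fell from 11.4 to 0.651 CPM. *HLA-DMA*, which loads peptides, was at 23.4 and 12.4, and *HLA-DPA1* at 93.5 and 50.6. The transcription factors of the shared class II promoter were near S in the case of *RFX5* (19.2 and 15.7) and *RFXANK* (59.0 and 60.1). *CIITA*, the class II transactivator, was below the minimum level, at 3.59 CPM in S and 1.01 in RV. MHC class I genes had a median of 0.20, with none of 12 rising or falling. *B2M*, the light chain of class I molecules, was at 882 and 1044 CPM.

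Class II promoters carry a set of short boxes close to the start of the gene, of which the Y box binds the factor NF-Y. The letters CTGATTGG were searched on both strands in the 250 bases before the start site in RefSeq promoter sequences (GRCh38.p14). They include ATTGG, which is the CCAAT box read on the other strand. They occurred in 5 of the 9 measured genes of the class II presentation list found in that table, including the transcription factor gene *RFX5*. Of 27195 promoters, 4.0% held them. The stretches around the match are shown for 3 of these genes, 5′ to 3′ on the strand of the gene, with the match in capitals, since these genes moved in the same direction to different extents. *HLA-DRB1* (chr6:32589850-32589937, minus strand) and *HLA-DRB5* (chr6:32530333-32530420, minus strand) fell, and *HLA-DMA* (chr6:32953132-32953219, minus strand) was 1.88-fold lower.
HLA-DRB1: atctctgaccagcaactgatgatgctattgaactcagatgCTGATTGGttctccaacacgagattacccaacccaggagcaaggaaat
HLA-DRB5: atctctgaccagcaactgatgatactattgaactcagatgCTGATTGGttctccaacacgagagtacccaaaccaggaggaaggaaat
HLA-DMA: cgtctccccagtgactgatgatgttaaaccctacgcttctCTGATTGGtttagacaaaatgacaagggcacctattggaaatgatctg

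Genes of inflammatory signalling were mostly lower in RV. Of 17 measured cytokines, chemokines and targets of the transcription factor NF-kappaB, 7 fell, 2 rose and 13 were below S, and the median log2 ratio was -0.79. Of the falls, *CCL2*, *IL1A* and *CXCL2* passed the minimum level only through S, and of the rises *IL18* only through RV. Each of these could enter the list only in its own direction. The monocyte chemokine *CCL2* fell from 11.2 to 2.30 CPM and the alarmin *IL1A* from 13.3 to 3.15. The neutrophil chemokines *CXCL1* (139 to 66.7), *CXCL2* (12.2 to 3.42) and *CXCL3* (43.1 to 13.2) fell as well, as did the adhesion molecule *ICAM1* (28.0 to 11.2) and *NFKB1*, which encodes the NF-kappaB subunit p50 and its precursor (74.0 to 28.9). *CXCL8* was at 85.9 and 55.4 CPM and the inhibitor *NFKBIA* at 45.9 and 26.6. The list did not move as 1 block, since *IL18* rose from 3.62 to 12.4 CPM, *IL24* rose from 155 to 310, and *IL1B* was at 20.8 and 40.2. The rise of *IL24* lay at the limit for a call, at 2.00-fold (1.95 to 2.05). The 10 measured interferon response genes had a median of 0.06, with no rise and no fall.

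The NF-kappaB site, searched as GGG, any 2 bases and then TTTCC, was found on either strand in the promoters of 6 of the 13 members listed in the RefSeq table, *CXCL1*, *CXCL2*, *CXCL3*, *NFKB1*, *BIRC3* and *NFKBIA*, and in 1.74% of all promoters searched. All 6 were below S, and 4 of them fell. In the whole list 13 of 17 were below S and 7 fell, among them *CCL2*, *IL1A* and *ICAM1*, which are not among the 6. A link between the site and the levels was not tested. The list was drawn up to hold NF-kappaB targets, so that its share of promoters with the site is no independent evidence. The stretches of the 3 chemokine genes are shown because the match lies at nearly the same distance from the start, 78 or 79 bases before it. These 3 stretches are nearly identical in sequence, so that their matches are not independent of each other. The stretch of *NFKB1*, with its match 49 bases before the start, is shown beside them. The genes lie on chromosome 4, *CXCL1* at chr4:73869274-73869363 (plus strand), *CXCL2* at chr4:74099224-74099313 (minus strand), *CXCL3* at chr4:74038719-74038808 (minus strand) and *NFKB1* at chr4:102501270-102501358 (plus strand).
CXCL1: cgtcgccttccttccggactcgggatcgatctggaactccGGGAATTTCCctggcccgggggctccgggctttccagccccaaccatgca
CXCL2: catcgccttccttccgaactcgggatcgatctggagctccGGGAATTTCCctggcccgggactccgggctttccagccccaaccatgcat
CXCL3: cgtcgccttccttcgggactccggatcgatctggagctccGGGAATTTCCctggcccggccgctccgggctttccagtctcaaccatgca
NFKB1: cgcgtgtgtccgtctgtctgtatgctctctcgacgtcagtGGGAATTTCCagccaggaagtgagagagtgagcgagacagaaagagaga

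Targets of the tumour suppressor p53 were mostly higher in RV. Of 18 measured genes 16 were above S, 4 rose and none fell, with a median log2 ratio of 0.54. Beside *GDF15*, these were the cell cycle inhibitor *CDKN1A* (p21), from 101 to 246 CPM, the DNA damage sensor *DDB2*, from 30.2 to 72.9, and the ferredoxin reductase *FDXR*, from 22.6 to 48.0. The BCL2 family, which decides on apoptosis, had 8 of 9 genes above S and 2 rises, 1 on each side of that decision. The inducer *BIK* rose from 9.52 to 39.6 CPM and the inhibitor *BCL2L1* (BCL-XL) from 23.04 to 54.6. *BIK* passed the minimum level only through RV. The family median over the 9 measured of 16 genes was 0.53, and it changed sign without a minimum level. *BAX* was at 118 and 206 CPM and the inhibitor *MCL1* at 93.1 and 86.5.

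Of 4 measured genes of the BMP pathway and the inhibitors of differentiation, which block basic helix-loop-helix factors and are induced by bone morphogenetic proteins, 2 fell and none rose (median -0.56). *ID1* had 228 CPM in S and 106 in RV, and *ID3* 248 and 64.1. The BMP receptor substrate *SMAD5* was at 14.1 and 14.0, the BMP and activin antagonist *FST* at 31.6 and 50.1, and *ID2* and *ID4* did not reach the minimum level. Of 9 measured TGF-beta genes 1 fell, the feedback inhibitor *PMEPA1* (219 to 71.6 CPM), and the activin subunit *INHBA* was at 318 and 206.

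Targets of YAP and TEAD, which report on cell shape and tension, were above S in 12 of 14 cases, with a median of 0.64. *AMOTL2* (12.1 to 37.3 CPM), *CYR61* (37.2 to 83.0) and *MYOF* (15.8 to 34.0) rose, *ANKRD1* was at 99.5 and 172, and *IGFBP3* fell from 33.7 to 13.1. Actin and contractile genes were above S in 20 of 21 cases, mostly by little (median 0.36), and smooth muscle actin *ACTA2* rose from 7.61 to 22.95. Among keratins and vimentin, *KRT7* rose from 177 to 602 CPM, *KRT18* from 769 to 1550 and *KRT15* from 5.30 to 11.6. *VIM* was at 2440 and 2594, and *KRT81*, a hair keratin with closely similar neighbours, was the exception, at 1154 in S and 595 in RV.

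Matrix genes were more often below S. Of 20 measured genes 15 were below S, 4 fell and 2 rose, with a median of -0.31. Of the falls, *COL4A1*, *COL5A2* and *VCAN* passed the minimum level only through S, and of the rises *COL13A1* only through RV. Each of these could enter the list only in its own direction. Tenascin C (*TNC*) fell from 36.9 to 11.5 CPM and the basement membrane collagen *COL4A1* from 15.04 to 7.36, while *COL13A1* (4.47 to 16.1) and *THBS1* (32.4 to 74.7) rose. The metalloproteinase inhibitor *TIMP1* fell from 948 to 451. Among 12 measured integrin and adhesion genes, the integrin *ITGA10* and the adhesion molecule *L1CAM* rose, and the integrins *ITGA1* and *ITGB8* fell. The integrin *ITGB4*, which is not on this list and was picked after its values were seen, rose from 14.6 to 39.4 CPM. The S100 family of calcium-binding proteins split by member among 10 measured genes. *S100A2* (145 to 458 CPM) and *S100A4* (168 to 420) rose, *S100B* and *S100A1* (10.5 to 2.86) fell, and the most abundant member, *S100A6*, was at 9377 and 14129. The metal-binding *MT2A* rose from 2810 to 5880.

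**Figure D3:**
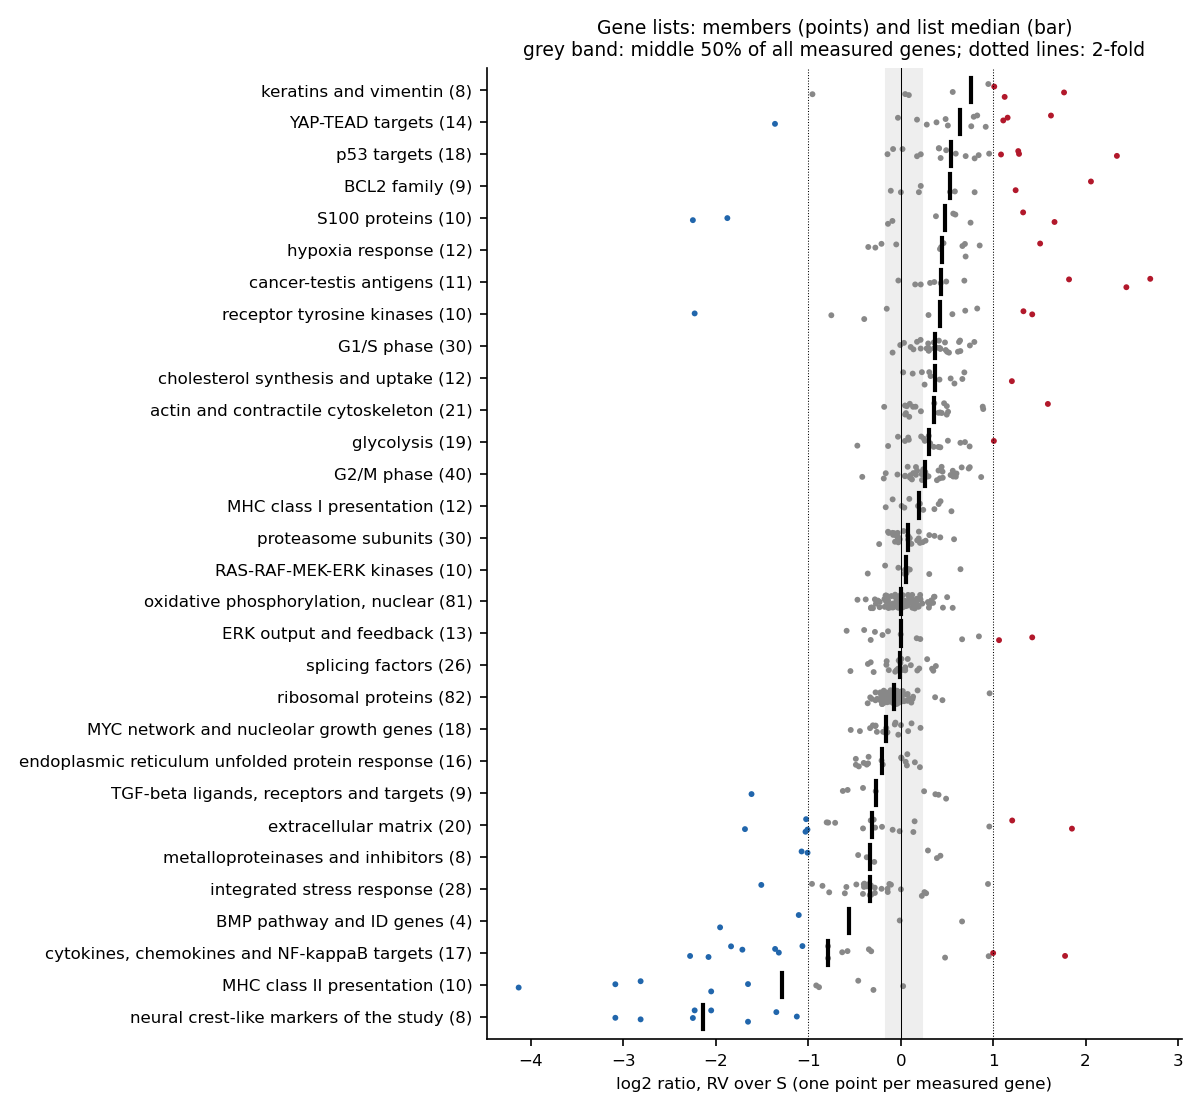
Log2 ratio of RV over S for each measured member of 30 gene lists (points; red, at least 2-fold higher; blue, at least 2-fold lower) with the list median (bar) and the middle 50% of all measured genes (grey band). The neural crest-like and MHC class II lists lie lowest, with medians of -2.14 and -1.28, and keratins, YAP-TEAD and p53 targets highest, with medians of 0.76, 0.64 and 0.54.

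Cell cycle genes were slightly but widely higher in RV. Of 30 measured G1/S genes 28 were above S (median 0.37) and of 40 G2/M genes 36 were (median 0.26), but none reached 2-fold. *PCNA* was at 29.7 and 51.7 CPM, *CDC20* at 69.3 and 115, and *TOP2A* went against the list at 101 and 75.6. RV cells with at most 0.15% of their UMIs on these genes made up 39.0% of the culture, and such S cells 55.8%. In these cells alone the median of the G1/S genes was -0.20, the inclusion rule using the same genes, and all 30 genes with the largest changes still differed by at least 2-fold. *CDKN1A* had a log2 ratio of 1.66 in these cells and 1.28 in all cells.

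Cholesterol synthesis and uptake genes were all above S, 12 of 12, with a median of 0.37, and *INSIG1* rose from 10.7 to 24.7 CPM. The sterol element letters TCACNCCAC did not occur in the promoters of the 7 members found in the RefSeq table and occurred in 0.879% of all promoters. With so rare a string and so few promoters, this absence does not show that the members lack sterol elements. Glycolysis genes were above S in 16 of 19 cases (median 0.30), with a rise of *ENO2* from 17.5 to 35.1, and 8 of 12 hypoxia genes were above S (median 0.45), with a rise of *ADM* from 4.21 to 12.0. The integrated stress response, which conserves amino acids under the transcription factor ATF4, was lower, with 23 of 28 genes below S (median -0.33). *TRIB3* was at 202 and 118 CPM, and the cystine transporter *SLC7A11* fell from 27.6 to 9.70. Of 12 measured antioxidant genes of the NRF2 list 8 were above S (median 0.05), and 2 fell, *SLC7A11* and the quinone reductase *NQO1* (261 to 118). The large housekeeping lists stayed near S. Medians were -0.07 for 82 ribosomal protein genes, 0.01 for 81 nuclear genes of oxidative phosphorylation, 0.08 for 30 proteasome subunits and -0.00 for 26 splicing factors, with no rise or fall in any of these lists.

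Some of the smaller differences were shared by neighbouring genes. Along each chromosome, measured genes were taken in order in full windows of 25, which gave 234 windows, and the genes left over at the end of a chromosome are in no window. All 3 windows of chromosome 18 were among the 5 highest, with medians of 0.32, 0.32 and 0.46. Over the chromosome, 78 of 88 measured genes were above S (88.6%), with a median log2 ratio of 0.38. The other chromosomes had medians between -0.05 and 0.14. Of the 88 genes 7 rose and none fell. The rises were *SLC14A1*, *CCBE1* (4.09 to 17.0 CPM), *RAB27B* (3.76 to 11.1), *INO80C* (12.6 to 25.4) and the non-coding *LINC01444*, *MIR4527HG* and *AC090409.1*. Some of them, such as *CCBE1* and *RAB27B*, passed the minimum level only through RV and could be counted only as higher. Most genes that did not rise differed by little, such as the splicing protein *SNRPD1*, at 377 and 502 CPM, or the respiratory subunit *NDUFV2*, at 184 and 253, both picked after their values were seen. In the median S cell 0.405% of the UMIs came from chromosome 18, and in the median RV cell 0.543%.

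On the distal long arm of chromosome 2, windows 12 to 15 (173354820 to 233854566, GRCh38) were 4 of the 5 lowest. Of their 100 genes 77 were below S, with a median of -0.22, and only *IGFBP5*, *NFE2L2* (107 to 51.6 CPM), *ITPRID2* and *COL5A2* fell. Some of them, such as *IGFBP5* and *COL5A2*, passed the minimum level only through S and could be counted only as lower. *NFE2L2* encodes NRF2 itself. Window 7 of chromosome 8 (median 0.35) and window 8 of chromosome 4 (median 0.37) were also among the 5 highest. DNA copy number was not measured here, and its part in these medians was not tested.

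**Figure D4:**
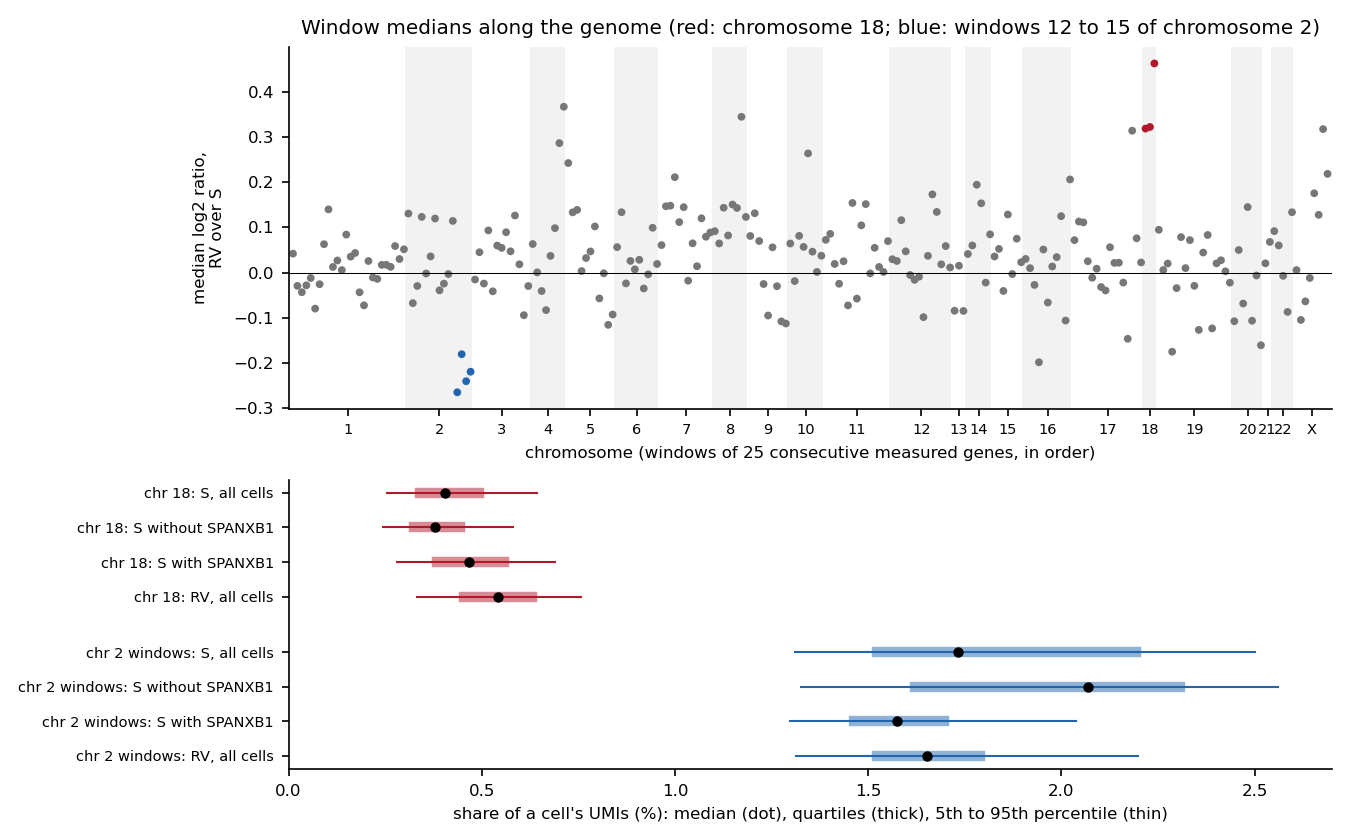
Upper panel, median log2 ratio of RV over S in 234 windows of 25 consecutive measured genes, ordered along the chromosomes. Lower panel, share of a cell's UMIs on chromosome 18 (red) and on the 100 genes of windows 12 to 15 of chromosome 2 (blue) for all S cells, S cells without and with a SPANXB1 UMI, and RV cells. The 3 windows of chromosome 18 stand high, with medians of 0.32 to 0.46, and the 4 windows of chromosome 2 low, with medians of -0.18 to -0.27.

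The S culture was itself uneven in the genes that differed. After these values were seen, the S cells were divided into 2489 cells (37.2%) with a UMI of *SPANXB1* and 4204 without, with medians of 9866 and 8379.5 UMIs per cell. Of RV cells 96.1% had such a UMI. The division uses a gene that rose in RV, and it shares its S cells with the comparison of RV and S, so that the values are a description. Of 6074 genes measured, 159 were at least 2-fold higher (2.62%) and 115 at least 2-fold lower (1.89%) in S cells with *SPANXB1*. Among the 161 genes that rose in RV, 95 were at least 2-fold higher in S cells with *SPANXB1* than in those without. Among the 106 that fell, 68 were at least 2-fold lower.

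Set against the S cells with *SPANXB1* alone, RV cells differed less. Of 6032 genes measured 72 were at least 2-fold higher in RV (1.19%) and 43 lower (0.713%). Of the 161 rises 64 remained and all 161 were still above these S cells. As these cells are part of the S cells against which the rises were chosen, that last count was largely fixed beforehand. Of the 106 falls 35 remained and 99 were still below these S cells.

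MHC class II genes and the neural crest-like markers also differed inside the S culture. The class II median was -1.85 for S cells with over those without *SPANXB1* and -0.22 for RV over the S cells with it. *CD74* was at 1177 CPM in S cells without, 305 in S cells with *SPANXB1* and 258 in RV, and *HLA-DRA* at 169, 31.7 and 26.9. For the neural crest-like markers the medians were -2.05 and -0.54. *ERBB3*, at 89.5, 33.7 and 14.1 CPM, was still more than 2-fold lower in RV than in S cells with *SPANXB1* (log2 ratio -1.26), and *SOX10*, at 109, 57.6 and 40.2, was below them too (-0.52). *SLC26A2*, at 293, 86.2 and 56.0, was likewise below them in RV, whereas *TIMP1*, at 1347, 400.3 and 451, was slightly above them (log2 ratio 0.17). *C19orf33*, *KRT7*, *BIK*, *EPHA2* and *NGFR* were each higher in S cells with *SPANXB1* and higher still in RV. Between RV and the S cells with *SPANXB1*, *NGFR* differed by 4.87-fold, *C19orf33* by 3.43-fold and *BIK* by 2.15-fold. *KRT7* and *EPHA2* differed by 1.65-fold and 1.59-fold. *KRT7* for example was at 40.7, 364 and 602 CPM, and *NGFR* at 0.190, 2.31 and 11.3. The YAP and TEAD targets had medians of 1.14 and 0.14.

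A second group differed between RV and both kinds of S cells. *ID3* was at 236 CPM in S cells without and 265 in S cells with *SPANXB1*, and at 64.1 in RV. *ID1* was at 226, 231 and 106. *LINC01419* was at 217 and 145 in the S cells and at 0.109 in RV, and *CAPS* at 147, 115 and 37.5. *GAGE2A* was at 4.43, 5.79 and 97.6, *RUNX1* at 9.46, 13.7 and 60.3, *AREG* at 33.4, 26.6 and 105, and *S100A4* at 204, 118 and 420. Among lists, p53 targets had medians of 0.05 for S cells with over without *SPANXB1* and 0.54 for RV over the former, G1/S genes 0.03 and 0.35, but G2/M genes 0.51 and 0.03. The corresponding medians were -0.03 and 0.35 for glycolysis, -0.18 and 0.48 for hypoxia, and 0.02 and -0.63 for cytokine and NF-kappaB genes. The first of these medians for cytokine and NF-kappaB genes lay between members that differed inside S in opposite directions. *NFKB1* was at 97.8 CPM in S cells without *SPANXB1*, 41.3 in S cells with it and 28.9 in RV.

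Some genes were not ordered along this division. *KRT81* was at 315 CPM in S cells without *SPANXB1*, 2306 in S cells with it and 595 in RV, so that RV lay above the first and below the second. *CXCL1* was at 81.1, 219 and 66.7. The 2 regions also differed from each other. On chromosome 18 the median was 0.26 for S cells with over without *SPANXB1* and again 0.24 for RV over the former, and 72 of 88 genes were higher in the S cells with *SPANXB1*. In windows 12 to 15 of chromosome 2 the corresponding medians were -0.43 and 0.08. The share of a cell's UMIs on these 100 genes had a median of 2.07% in S cells without *SPANXB1*, 1.57% in S cells with it and 1.65% in RV.

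**Figure D5:**
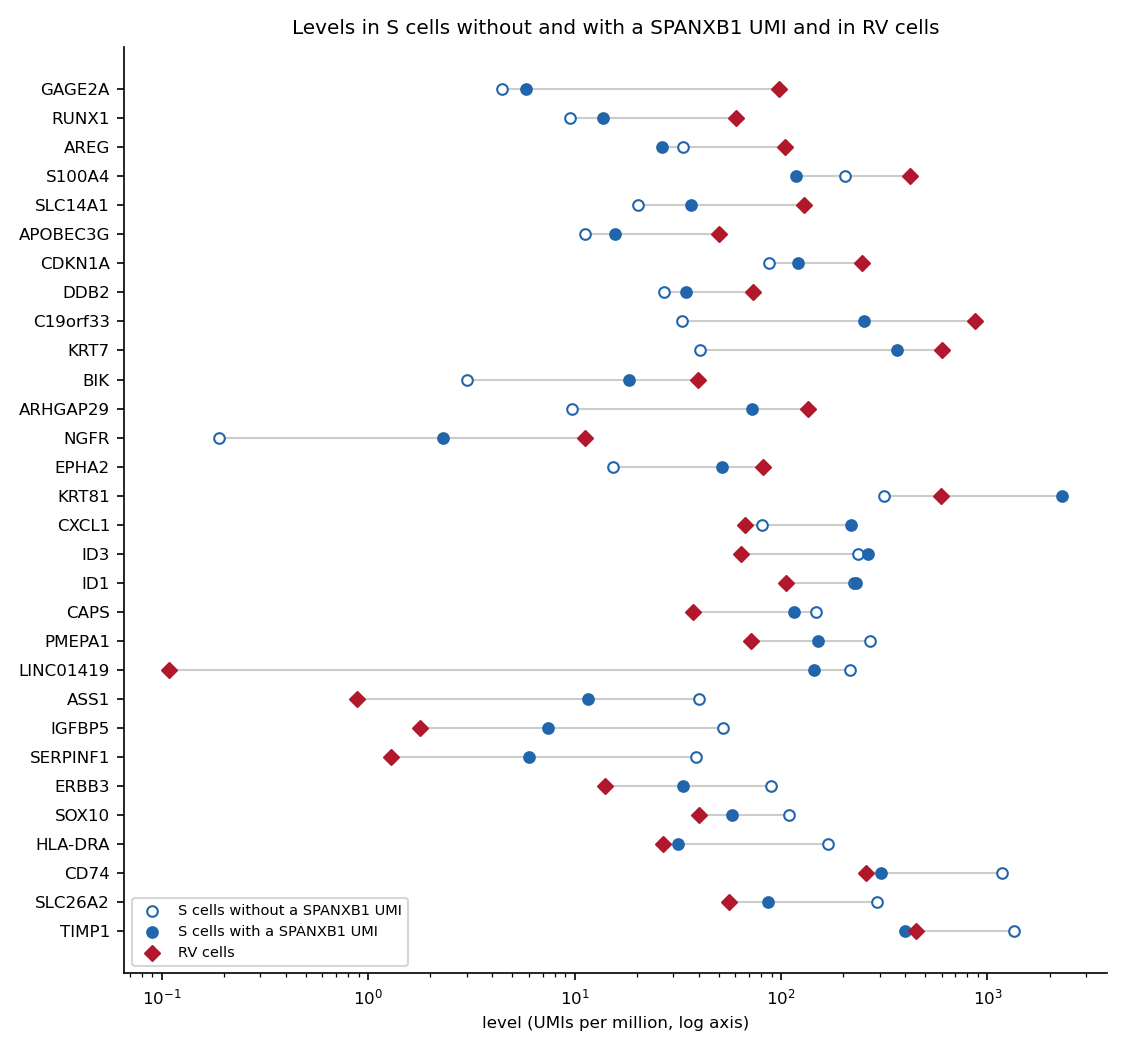
Levels of 30 genes, in CPM on a log axis, in S cells without (open circles) and with (filled circles) a SPANXB1 UMI and in RV cells (diamonds). For ID3, ID1, GAGE2A, RUNX1 and AREG both circles lie close together and away from the diamond, whereas for CD74, HLA-DRA and TIMP1 the filled circle lies close to the diamond.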

How the data were processed

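The authors used 10x Genomics Chromium v2 chemistry for capture. Per the labels, they ran bcl2fastq 2.20.0.422 and Cell Ranger (version not given in the sources used here) with GRCh38. The deposited values are raw UMI counts, 1 per gene and barcode. Counts of barcodes with at least 500 genes and at most 20% mitochondrial UMIs were summed per gene and scaled to CPM. S and RV list the same 33694 identifiers, of which 33132 were placed with GENCODE 29. Genes needed 10 CPM in the higher library. Intervals are Poisson for levels, conditional binomial for ratios and Clopper-Pearson for shares, at 95%. Where a gene had no UMI, 3 UMIs were used for its ratio.

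Named were the 15 largest rises and falls of at least 20 CPM, members of 55 gene lists (any of lists with up to 15 measured members, otherwise up to 4 of the largest changes each way), genes that the study names, and genes past 2-fold in the windows described. *SNRPD1*, *ITGB4*, the genes of the closing section and, among cytokine and NF-kappaB genes, *CXCL1*, *CXCL8*, *ICAM1*, *NFKB1*, *NFKBIA* and *BIRC3* were named beyond this rule and picked after their values were seen. Members, lists and motifs were chosen with earlier results of these data known.

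Doublets were not removed in the values given. In an alternative, scrublet scores (scanpy 1.11.5) removed 359 S and 150 RV barcodes at 0.8% per 1000 barcodes, since its own threshold marked only 4 and 2. Other alternatives used edgeR 4.0.16 TMM or DESeq2 1.42.0 size factors for scaling only. The calculation was tested on simulated data. Python 3.11.15, numpy 2.4.6, pandas 2.3.3, scipy 1.17.1, matplotlib 3.10.9 and R 4.3.3 were used.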

Additional observations from a re-analysis of the deposited data

How the results depend on the processing

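All 267 genes that differed by at least 2-fold kept their direction under each alternative, other than the division of S cells by *SPANXB1*. Under the same alternatives the 30 genes with the largest changes stayed past 2-fold. For several alternatives both outcomes were fixed beforehand. Another minimum level leaves each ratio as it was. The scalings shift all ratios by 1 constant, no larger than 0.065 on the log2 scale. The cell filter had removed only 2 S barcodes and 1 RV barcode. Of the 267, 223 stayed past 2-fold in cells with few cell cycle UMIs, 226 in cells of 8000 to 14000 UMIs, and at least 249 under each of the others. *KRT18* was just under 2-fold in cells with few cell cycle UMIs (log2 ratio 0.98). The numbers past 2-fold moved by more than 1.5 times in these cases. Without a minimum level 2804 genes were higher and 2316 lower, as 22009 genes then enter. At 50 CPM 51 were higher and 26 lower, since fewer genes qualify. With library totals that leave out ribosomal and mitochondrial genes 170 were lower, and the higher count was 192. In that setting 8244 genes passed the minimum and the log2 ratios had a median shift of -0.065. The parts of these 2 changes were not tested. Against S cells with a *SPANXB1* UMI only, an alternative chosen after seeing the data, 72 were higher and 43 lower, and 99 of the 106 falls stayed below S. Those that turned include *RAMP1* (log2 ratio 0.067) and *TIMP1* (0.17). Cells of 8000 to 14000 UMIs only, also chosen afterwards, gave 149 and 94. TMM scaling gave 150 and 111, and removal of likely doublets 159 and 102.

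Among list medians at least 0.3 from 0, those that turned were of receptor tyrosine kinases (-0.23) and the BCL2 family (-0.017) without a minimum level, of neuropeptides and their processing enzymes without ribosomal and mitochondrial genes (0.043, from -0.49 over 3 genes), and of G1/S genes in cells with few cell cycle UMIs (-0.20). Medians nearer to 0 also changed sign under several settings and carry no direction, for example ERK output (0.28 against S cells with *SPANXB1*), AP-1 genes (-0.01 with TMM scaling) and nuclear oxidative phosphorylation (-0.03 with TMM scaling). The causes were not tested beyond the construction named. The chromosome 18 median stayed between 0.24 and 0.41. No paired analysis was possible because each condition has 1 library. Medians per chromosome arm were not computed, since no table of centromeres was used. Depth limits genes below 10 CPM, and the spread between cultures cannot be given.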

Other observations

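The genes below lie outside the gene lists and were picked after their values were seen, so that they support no statement on a group. The caveolae components *CAV1* (88.5 CPM in S and 288 in RV) and *CAV2* (14.8 and 43.7) rose. The tetraspanin-related genes *TM4SF1* (59.6 and 220) and *TM4SF18* (1.65 and 13.2) rose too, as did the plasminogen activator *PLAT* (17.8 and 49.8) and the urokinase receptor *PLAUR* (41.9 and 83.9). The secreted WNT antagonist *DKK1* was at 27.7 and 88.5. The NOTCH target *HES1* fell from 416 to 182, and the proteoglycan *CSPG4*, a melanoma surface antigen, from 28.0 to 13.9.

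*AP3S1*, a subunit of the AP-3 adaptor complex, rose from 267 to 748 CPM, and *SNRPB2*, a protein of the U2 spliceosome particle, fell from 821 to 320, although the 26 splicing factors of the list above had a median log2 ratio of -0.00.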
